A study of Mus musculus with 8 samples.

Results

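Cytochrome P450 enzymes are heme proteins that add oxygen to drugs, dietary chemicals, fatty acids, sterols, steroid hormones, retinoids and vitamin D. The P450 genes described here were all genes whose symbol in the platform annotation is Cyp followed by a number and a lower-case letter, together with Cyp51. The rule found 63 genes of the 12393 genes measured by a probe set with 1 symbol. They belong to 15 families and 30 subfamilies. Each gene was read from its brightest probe set, and 12 of the 63 genes had more than 1 to choose from.

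The series compared RNA of mouse intestinal epithelial cells in a model of Wnt-driven tumour initiation, and asked what the kinase IKKα contributes to it. There were 4 groups of 2 Affymetrix arrays. The bCATca_IKKa-AA group, called double mutants here, carried both a constitutively active β-catenin that is induced by tamoxifen and is restricted to intestinal epithelial cells, and the IKKα AA allele on both chromosomes. The bCATca group carried the active β-catenin with normal IKKα. The IKKa-AA group carried the AA allele on both chromosomes with normal β-catenin. The WT group carried neither. In the AA allele the serines that are phosphorylated to activate the kinase are replaced by alanines. All mice, WT included, had a C57BL/6 x 129Sv x FVB mixed background, received tamoxifen by gavage on 5 days, and gave their cells 15 days after the first dose. Age and the driver of the recombinase are not given in the sources used here. From each sample 200 ng of total RNA was labelled.

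In the gut, P450 enzymes of the Cyp1, Cyp2 and Cyp3 families sit in the endoplasmic reticulum of absorptive enterocytes and form, with the liver, the barrier that oxidises swallowed chemicals before they reach the circulation. Many of these genes are switched on by ligand-activated receptors: the aryl hydrocarbon receptor acts on Cyp1a1, the pregnane X receptor on Cyp3a genes, and the constitutive androstane receptor on Cyp2b10. Cyp4 enzymes oxidise the ends of fatty acids, and families with higher numbers mostly handle sterols, bile acids, steroid hormones and vitamins. Levels below are log2 intensities, a change is a difference between log2 group means, the standard error (SE) is that of the linear model, and each group has n = 2 arrays. Adjusted p-values come from limma with Benjamini-Hochberg adjustment over all 12393 genes, and a gene passed the test, or was called, at an adjusted p under 0.05.

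Promoter windows are shown for 5 genes picked to stand for the Cyp3a, Cyp2c, Cyp2b and Cyp1a subfamilies. Cyp2c29 and Cyp2b10 passed the test in bCATca against WT, and Cyp3a11, Cyp3a25 and Cyp1a1 did not. Cyp3a13, the Cyp3a gene that passed, is not shown. The windows come from RefSeq on build GRCm38.p6 and run on the strand of the gene from 250 bases before to 50 bases after its annotated start. Cyp3a11 lies at chr5:145879805-145880104 on the minus strand, Cyp3a25 at chr5:146009568-146009867 on the minus strand, Cyp2c29 at chr19:39286835-39287134 on the plus strand, Cyp2b10 at chr7:25897408-25897707 on the plus strand, and Cyp1a1 at chr9:57697363-57697662 on the plus strand. Capitals mark the motifs searched on both strands: AGGTCA and AGTTCA, hexamers read by nuclear receptors, TCAAAG, the core read by the TCF and LEF partners of β-catenin, GCGTG, the core of the aryl hydrocarbon receptor element, and TATAAA. The TCF core can overlap AGGTCA, as it does in Cyp3a25.
Cyp3a11: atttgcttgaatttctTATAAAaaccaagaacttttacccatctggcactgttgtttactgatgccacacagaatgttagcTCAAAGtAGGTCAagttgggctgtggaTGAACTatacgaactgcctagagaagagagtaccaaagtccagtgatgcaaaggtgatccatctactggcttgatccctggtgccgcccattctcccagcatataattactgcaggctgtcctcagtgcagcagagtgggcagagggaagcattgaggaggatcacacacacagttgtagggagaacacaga
Cyp3a25: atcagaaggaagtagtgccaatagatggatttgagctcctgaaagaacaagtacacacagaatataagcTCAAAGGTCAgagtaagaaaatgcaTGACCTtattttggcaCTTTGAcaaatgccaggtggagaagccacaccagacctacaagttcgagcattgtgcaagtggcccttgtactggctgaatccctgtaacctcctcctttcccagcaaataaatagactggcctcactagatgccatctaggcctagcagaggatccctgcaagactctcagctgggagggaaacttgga
Cyp2c29: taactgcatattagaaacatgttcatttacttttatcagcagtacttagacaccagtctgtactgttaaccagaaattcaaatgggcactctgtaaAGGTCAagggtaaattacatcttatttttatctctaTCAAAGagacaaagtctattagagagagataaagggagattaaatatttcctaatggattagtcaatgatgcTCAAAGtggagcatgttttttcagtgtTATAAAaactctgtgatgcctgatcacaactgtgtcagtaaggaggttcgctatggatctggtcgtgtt
Cyp2b10: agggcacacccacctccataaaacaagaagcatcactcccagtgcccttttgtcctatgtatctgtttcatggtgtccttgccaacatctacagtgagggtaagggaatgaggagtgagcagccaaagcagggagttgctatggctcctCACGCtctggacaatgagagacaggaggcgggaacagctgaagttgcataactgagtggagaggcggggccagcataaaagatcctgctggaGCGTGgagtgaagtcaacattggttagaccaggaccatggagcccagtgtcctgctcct
Cyp1a1: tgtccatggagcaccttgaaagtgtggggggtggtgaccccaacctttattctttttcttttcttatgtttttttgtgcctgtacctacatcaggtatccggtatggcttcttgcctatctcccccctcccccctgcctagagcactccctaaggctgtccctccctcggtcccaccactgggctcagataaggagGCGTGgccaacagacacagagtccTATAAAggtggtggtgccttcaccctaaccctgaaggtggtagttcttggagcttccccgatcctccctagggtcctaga
In the Cyp3a11 window TCAAAG began 169 bases and AGGTCA 162 bases before the start, a TATAAA began 234 bases before it, and AGTTCA stood on the other strand at 142 bases. Cyp3a25 held TCAAAG and AGGTCA on the plus strand of the gene at 181 and 177 bases before the start, and both again on the other strand at 140 and 156 bases. Cyp2c29 held AGGTCA at 154 bases, TCAAAG at 118 and 46 bases, and TATAAA at 19 bases. Cyp1a1 held GCGTG at 54 bases and TATAAA at 30 bases, and Cyp2b10 held GCGTG at 9 bases and, on the other strand, at 101 bases. Windows were found for 46 of the 63 genes, 53 windows in all. AGGTCA stood in 24.5% of them and in 16.3% of all 32851 windows of the same length, AGTTCA in 15.1% and 14% of all windows, TCAAAG in 24.5% and 16%, GCGTG in 22.6% and 32.4%, and TATAAA in 35.8% and 13.6%. Some genes have several overlapping windows, among them Cyp3a25, each counted apart. By gene, AGGTCA stood in a window of 12 of the 46 P450 genes (26.1%, against 18.1% of all genes with a window) and TCAAAG in a window of 11 (23.9%, against 18.2%). Among the 9 windows of genes that fell in bCATca, AGGTCA stood in 1, AGTTCA in 3, TCAAAG in 2, GCGTG in 3 and TATAAA in 3. A match is a run of letters in the window and not a measured binding site.

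Epithelial markers were high on every array. Epcam read 12.48 to 12.65, and the log2 summed intensity of 10 epithelial genes lay at 15.43 and 15.47 in double mutants, 15.44 and 15.45 on bCATca arrays, 15.51 and 15.36 on IKKa-AA arrays, and 15.34 and 15.42 on WT arrays. Gata4, a factor of the upper small intestine, read 8.37 to 8.83, and the ileal genes Fabp6 and Slc10a2 stayed at or below 3.59. Genes listed as colonic were mixed. Car1 and Hoxb13 stayed at or below 3.59, while Car4 read 8.05 to 10.34, Slc26a3 8.51 to 9.87, Retnlb 5.41 to 9.94 and Aqp8 3.85 to 6.35. Of the other genes listed for small intestine, Lyz1 read 12.37 to 13.31 and Lct 8.77 to 12.36. Axin2, a direct target of β-catenin, read 8.41 and 8.71 in double mutants, 9.43 and 9.26 on bCATca arrays, 7.64 and 7.89 on IKKa-AA arrays, and 7.29 and 7.35 on WT arrays. The 4 arrays labelled with active β-catenin stood above the other 4, and the bCATca arrays above the double mutants. The gene of the kinase itself was not analysed here. Background was set at 4.03, the highest reading of a transcript that the animal should lack (Xist in animals with Y-linked transcripts, and Y-linked transcripts in the animal without). The mean over all 8 arrays was above it for 30 of the 63 P450 genes: 2 of 3 in Cyp1, 15 of 31 in Cyp2, 3 of 5 in Cyp3, 6 of 10 in Cyp4, 1 of 2 in Cyp27, and the sole members of Cyp21, Cyp39 and Cyp51. No member of Cyp7, Cyp8, Cyp11, Cyp17, Cyp24, Cyp26 or Cyp46 was above it.

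The replicates of the IKKa-AA group did not read alike, and this bears on every comparison. Of the 63 P450 genes, 52 were lower in IKKa-AA replicate 1 than in replicate 2, 14 of them by more than 1 on the log2 scale, and none was higher by that much. The share of P450 genes lying more than 1 apart between IKKa-AA replicates was 22.2%, against 3.16% of all genes. In bCATca it was 20.6%, against 1.35% of all genes, with 11 P450 genes higher by more than 1 in replicate 1 and 2 lower. The corresponding shares of P450 genes were 3.17% in double mutants and 4.76% in WT. Other transcripts split the IKKa-AA arrays too: lactase, Lct, read 10.26 on replicate 1 and 12.23 on replicate 2, and Jchain of plasma cells read 3.84 and 8.68. The labels do not say whether replicates were separate animals. WT replicate 1 alone lacked the Y-linked transcripts Eif2s3y, Kdm5d and Uty, at 2.02 to 2.56, so the WT arrays came from different animals, and p-values cover only the spread seen among these samples, part of which may be technical. Where leaving out the IKKa-AA arrays changes a call, the value without them is given beside the result.

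**Figure D1:**
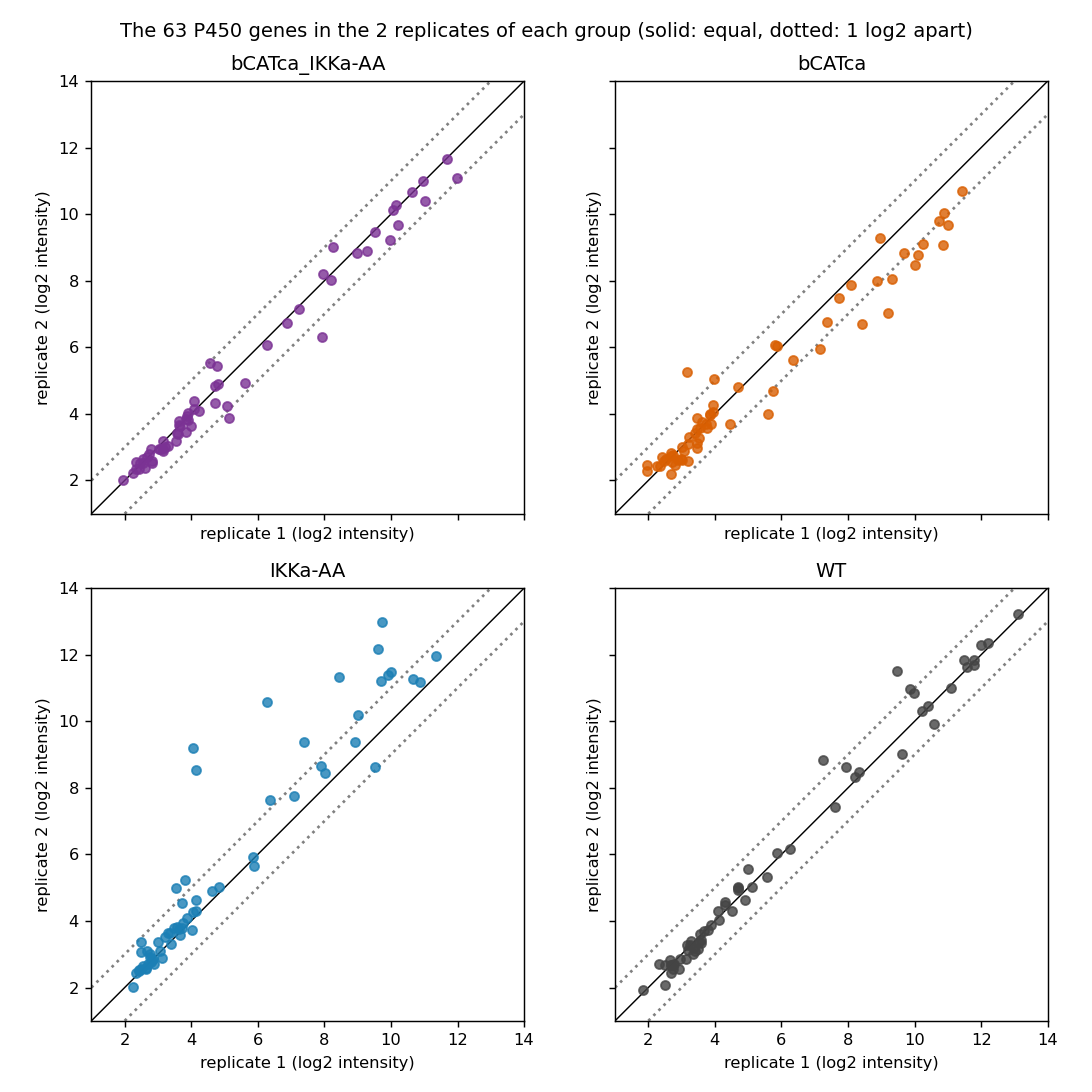
Levels of the 63 P450 genes (log2 intensity) on replicate 1 (horizontal axis) and replicate 2 (vertical axis) of each group; 1 point per gene, the solid line marks equal levels and the dotted lines a difference of 1. In IKKa-AA most high points lie above the solid line and 14 lie beyond the upper dotted line, while in double mutants and WT only 2 and 3 genes lie beyond a dotted line.

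Summed over the 63 genes, P450 intensity was 21237 and 17910 in double mutants, 18450 and 9396 on bCATca arrays, 14196 and 39184 on IKKa-AA arrays, and 42198 and 48883 on WT arrays. The 4 arrays with active β-catenin and IKKa-AA replicate 1 formed the low set, and IKKa-AA replicate 2 stood just under the WT arrays. Over the 63 genes the median difference from the WT mean was -0.21 and -0.29 in double mutants, -0.32 and -0.48 on bCATca arrays, and -0.38 and -0.14 on IKKa-AA arrays. In a tissue sample, fewer cells that make an RNA and less of it in each cell cannot be told apart.

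**Figure D2:**
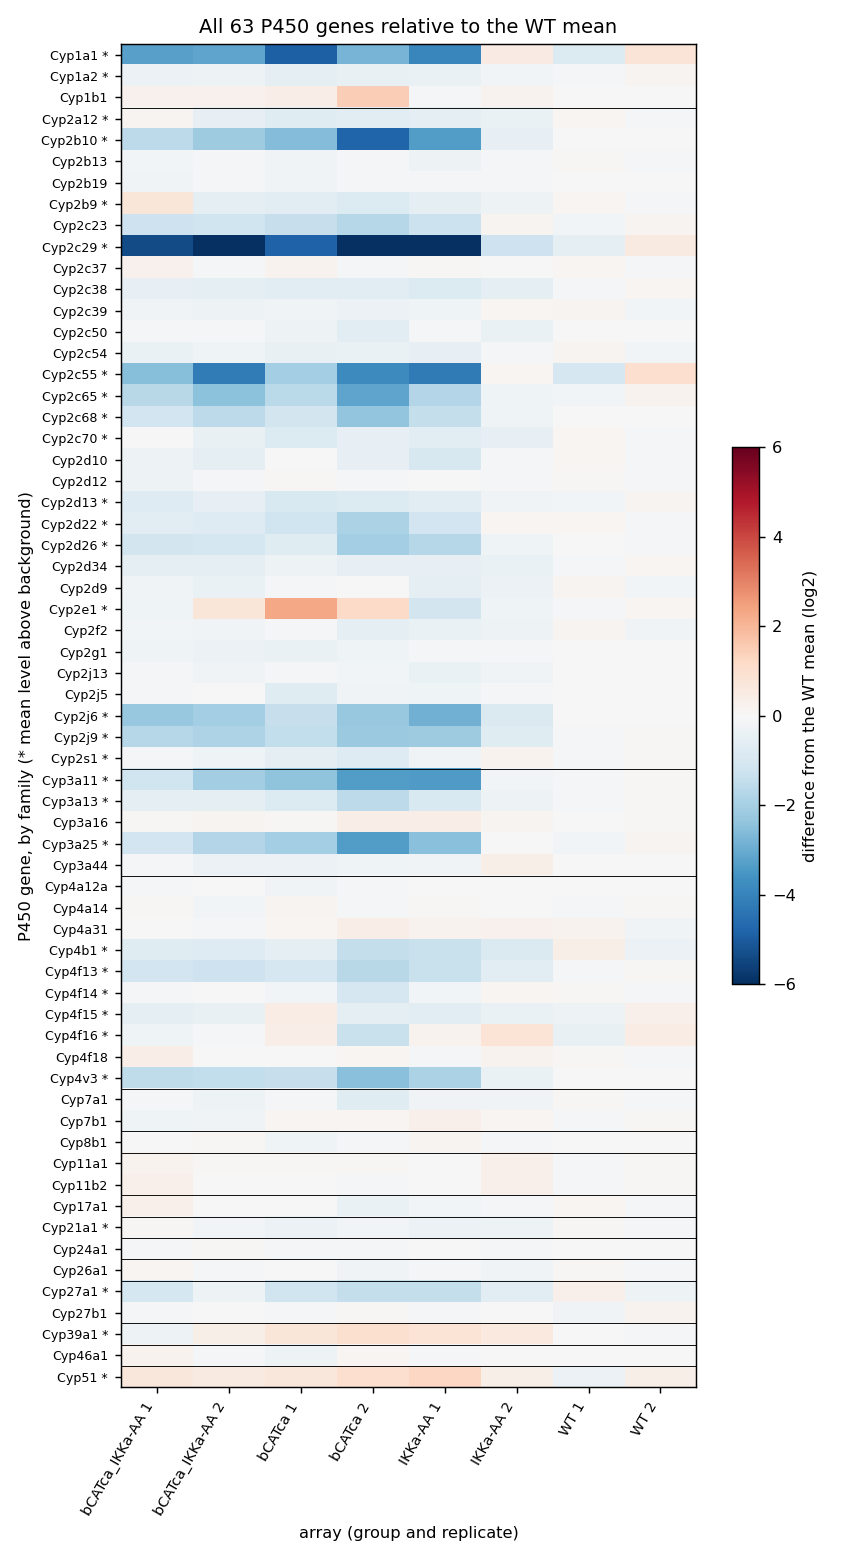
Difference of each of the 63 P450 genes from its WT mean (log2, colour scale) on each of the 8 arrays, grouped by family with thin lines; an asterisk marks genes with a mean level above background. The bCATca_IKKa-AA arrays, the bCATca arrays and IKKa-AA replicate 1 share the blue cells of Cyp1a1, Cyp2b10, Cyp2c29, Cyp2c55, Cyp3a11 and Cyp3a25, which are pale on IKKa-AA replicate 2.

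The comparison of bCATca with WT asks what active β-catenin does to this family while IKKα is normal. Of the 63 genes, 12 fell (the same call was made for 3.55% of all genes tested) and 1 rose (5.74% of all genes). The median change over the 63 genes was -0.41, beside 0.01 over all genes. At an unadjusted p under 0.05, 28 were lower and 4 higher, where 12.5% and 17.0% of all genes were. In bCATca 17 P450 genes were lower by more than 1 (2.64% of all genes) and 1 higher by as much (3.2%). Both bCATca arrays lay below both WT arrays for 41 P450 genes (29.7% of all genes) and above them for 7 (33.5%). By family, 8 of 31 Cyp2 genes fell and 1 rose, 1 of 5 Cyp3 genes fell, 2 of 10 Cyp4 genes fell, 1 of 2 Cyp27 genes fell, and no gene of the other 11 families was called. No call held in all 8 fits that left out 1 array. Without either WT array or without bCATca replicate 2 no P450 gene was called, and without either double mutant array 3 were, with Cyp4f13 the only one of the 13 among them. Without the IKKa-AA arrays, a setting chosen after the data were seen, the changes are the same by construction, the SE no longer holds the gap between those arrays, and 20 genes fell and 3 rose (6.07% and 9.14% of all genes).

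**Figure D3:**
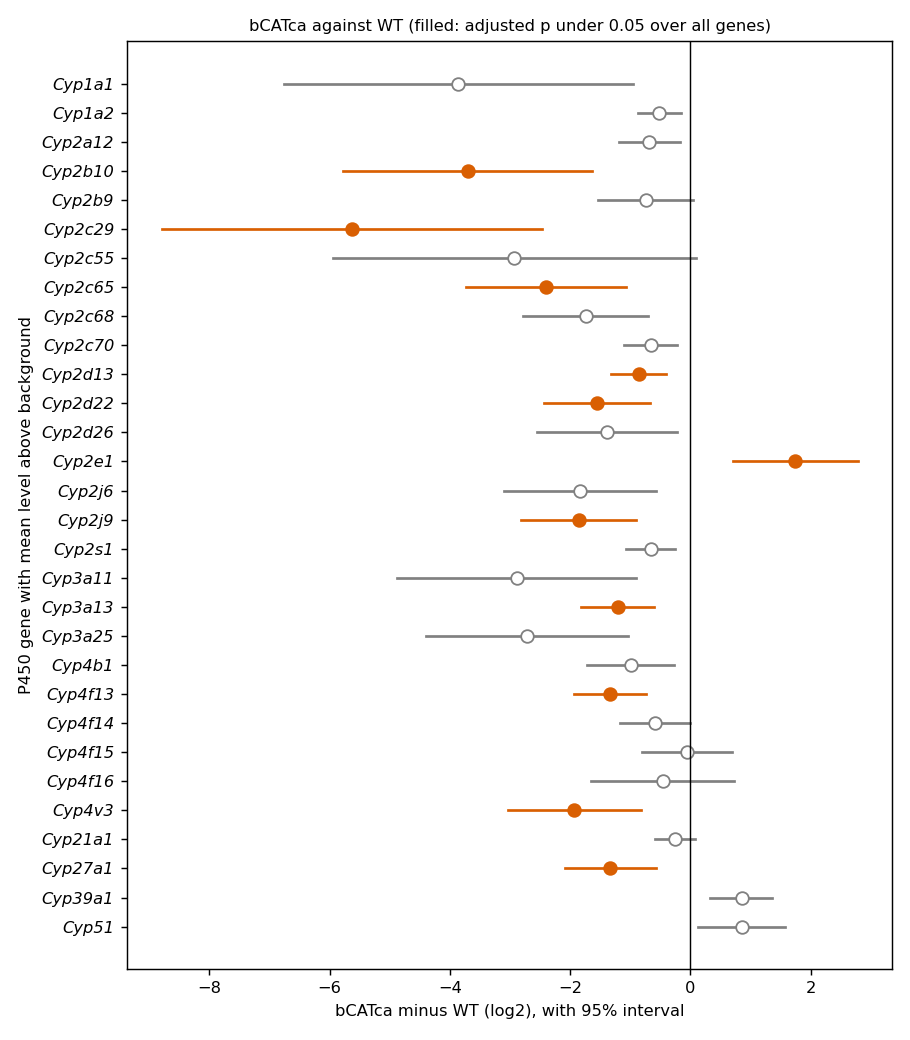
Change in bCATca against WT (log2, horizontal axis) with its 95% interval for the 30 P450 genes whose mean level was above background; filled circles passed the test over all genes. The change runs from -5.63 for Cyp2c29 to 1.74 for Cyp2e1. The genes were kept on their mean over all 8 arrays, and for 3 of them, Cyp1a2, Cyp2b9 and Cyp2d13, the bCATca mean was at or under background.

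The Cyp3a subfamily holds the main drug-oxidising enzymes of the gut wall, and its members above background were lower in bCATca, with 1 of them past the test. Cyp3a13, an intestinal member, read 11.67 and 11.67 in double mutants, 11.43 and 10.70 on bCATca arrays, 11.36 and 11.96 on IKKa-AA arrays, and 12.20 and 12.34 on WT arrays. It fell 2.31-fold in bCATca (change -1.21, SE 0.27, adjusted p = 0.0306), and every bCATca array lay below both WT arrays. Cyp3a11, a major target of the pregnane X receptor, read 11.98 and 11.08 in double mutants, 10.74 and 9.80 on bCATca arrays, 9.74 and 12.99 on IKKa-AA arrays, and 13.11 and 13.21 on WT arrays. Its WT arrays stood above all others, with IKKa-AA replicate 2 next to them and IKKa-AA replicate 1 the lowest of the 8. The change in bCATca was -2.89 (SE 0.87), 7.41-fold, at an adjusted p of 0.0718, and of 0.00157 without the IKKa-AA arrays. Cyp3a25, a close relative, read 11.01 and 10.41 in double mutants, 10.10 and 8.78 on bCATca arrays, 9.62 and 12.16 on IKKa-AA arrays, and 12 and 12.30 on WT arrays. Its reading on IKKa-AA replicate 2 lay between those of the WT arrays, and its lowest was on bCATca replicate 2. Its change was -2.71 (SE 0.73, adjusted p = 0.0547, or 0.00335 without the IKKa-AA arrays). Cyp3a16 and Cyp3a44, known mainly from fetal and female mouse liver, stayed at or below 3.07 on all arrays.

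**Figure D4:**
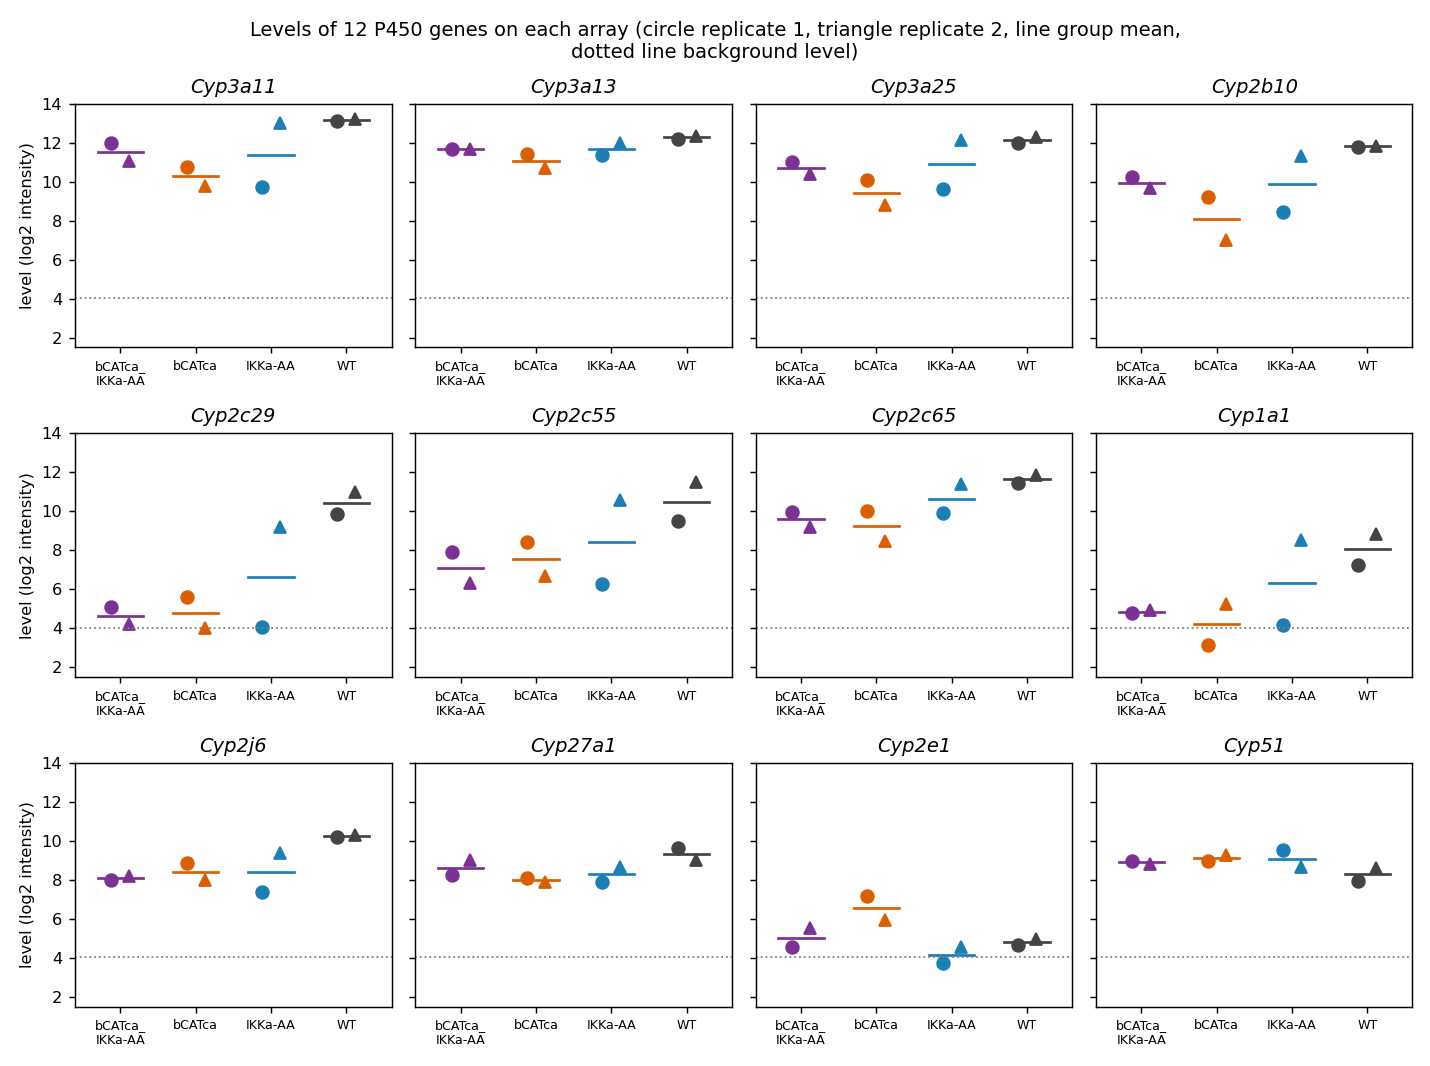
Levels (log2 intensity) of 12 P450 genes on each array, by group from bCATca_IKKa-AA to WT; circles are replicate 1, triangles replicate 2, short lines group means (n = 2) and the dotted line the background level of 4.03. IKKa-AA replicate 2 lies near the WT arrays and replicate 1 near the bCATca arrays for Cyp3a11, Cyp3a25, Cyp2b10, Cyp2c29, Cyp2c55 and Cyp1a1, and Cyp2e1 is highest in bCATca.

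Among the chemically inducible members, Cyp2b10 fell and Cyp1a1 did not pass the test. Cyp2b10 read 10.22 and 9.67 in double mutants, 9.19 and 7.02 on bCATca arrays, 8.45 and 11.32 on IKKa-AA arrays, and 11.79 and 11.83 on WT arrays. All 6 arrays outside WT lay below WT, bCATca replicate 2 lowest, and the fall in bCATca was 13-fold (change -3.70, SE 0.90, adjusted p = 0.0414). Its other 2 probe sets gave changes of -4.10 and -3.66. The other 3 Cyp2b genes were near background, with changes of -0.14 for Cyp2b13, -0.16 for Cyp2b19 and -0.74 for Cyp2b9. Cyp1a1, which oxidises aromatic hydrocarbons, read 4.80 and 4.91 in double mutants, 3.15 and 5.26 on bCATca arrays, 4.14 and 8.54 on IKKa-AA arrays, and 7.26 and 8.85 on WT arrays. The WT arrays and IKKa-AA replicate 2 were high and the other 5 at or near background, and the change in bCATca of -3.86 (SE 1.27) had an adjusted p of 0.0885, or 0.00745 without the IKKa-AA arrays. Cyp1a2, its liver counterpart, gave -0.52 (adjusted p = 0.0719). Cyp1b1 gave 0.93 (adjusted p = 0.0885) at levels of 3.49 to 5.06, and its other probe sets gave 0.08 and -0.59, so its direction is uncertain.

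Cyp2c enzymes turn arachidonic acid into epoxides and oxidise drugs, and 4 of the 11 genes fell in bCATca while none rose. Cyp2c29 gave the lowest ratio of the family, with 5.07 and 4.23 in double mutants, 5.59 and 4.00 on bCATca arrays, 4.04 and 9.20 on IKKa-AA arrays, and 9.87 and 10.98 on WT arrays. IKKa-AA replicate 1 and the 4 arrays with active β-catenin were low, and the WT arrays and IKKa-AA replicate 2 were far above them. The fall was 49.4-fold (change -5.63, SE 1.38, adjusted p = 0.0421), and readings near background make such a fold imprecise. Cyp2c65, an epoxygenase of the gastrointestinal tract, read 9.97 and 9.21 in double mutants, 10.01 and 8.48 on bCATca arrays, 9.90 and 11.40 on IKKa-AA arrays, and 11.47 and 11.84 on WT arrays. It fell 5.29-fold (change -2.40, SE 0.58, adjusted p = 0.0399), and the bCATca and WT arrays did not overlap. Cyp2c68 missed the threshold with -1.74 (SE 0.46, adjusted p = 0.0506), and passed without the IKKa-AA arrays (adjusted p = 0.0155). Cyp2c55, known as inducible in the intestine, read 7.92 and 6.30 in double mutants, 8.43 and 6.69 on bCATca arrays, 6.27 and 10.59 on IKKa-AA arrays, and 9.48 and 11.50 on WT arrays. Its replicates differed by over 1 in every group and its change of -2.93 (SE 1.31) had an adjusted p of 0.179, or 0.0372 without the IKKa-AA arrays. Cyp2c23 (-1.55, adjusted p = 0.0485) and Cyp2c38 (-0.67, adjusted p = 0.0295) fell at levels that were above background only in some arrays, Cyp2c23 reading 3.46 and 3.11 in bCATca, against 4.68 and 5.00 in WT. The bCATca readings of both were under background, so these changes have no firm size. Cyp2c23 kept its call in 1 of the 8 other settings listed in the closing section and Cyp2c38 in 7 of 8. Cyp2c70 gave -0.66 (adjusted p = 0.0648), and Cyp2c37, Cyp2c39, Cyp2c50 and Cyp2c54 stayed at or below 3.41. Cyp2c genes lie side by side and are alike in sequence, so a probe set may take signal from a relative.

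Of the remaining Cyp2 genes, Cyp2j9, Cyp2d22 and Cyp2d13 fell and Cyp2e1 rose. The Cyp2j enzymes make epoxides of fatty acids. Cyp2j9 read 4.22 and 4.10 in double mutants, 4.46 and 3.71 on bCATca arrays, and 3.82 and 5.23 on IKKa-AA arrays. The WT arrays, at 5.86 and 6.03, lay above all of these, several of which were at background. Cyp2j9 fell 3.63-fold in bCATca (change -1.86, SE 0.41, adjusted p = 0.0317). Its bCATca mean of 4.09 lay near the background of 4.03, which makes such a fold imprecise. Cyp2j6, the Cyp2j gene best known in the intestine, read 7.97 and 8.2 in double mutants, 8.86 and 7.99 on bCATca arrays, 7.39 and 9.37 on IKKa-AA arrays, and 10.22 and 10.30 on WT arrays. No other array reached the WT level, and the change in bCATca was -1.84 (SE 0.55, adjusted p = 0.0714, or 0.00324 without the IKKa-AA arrays). Cyp2d22 read 6.89 and 6.73 in double mutants, 6.34 and 5.61 on bCATca arrays, 6.37 and 7.63 on IKKa-AA arrays, and 7.62 and 7.43 on WT arrays. It fell 2.93-fold (change -1.55, SE 0.38, adjusted p = 0.0437), with a change of -1.57 on its other probe set. Cyp2d13 read 4.09 and 4.38 in double mutants, 3.93 and 4.05 on bCATca arrays, 4.15 and 4.62 on IKKa-AA arrays, and 4.69 and 5.02 on WT arrays. It fell in bCATca (adjusted p = 0.0371), where its mean was not above background, so the fitted change of -0.86 has no firm size, and its other, dimmer probe set gave -0.21 and was not called. Cyp2d26 read 10.63 and 10.67 in double mutants, 11 and 9.67 on bCATca arrays, 10.00 and 11.49 on IKKa-AA arrays, and 11.77 and 11.68 on WT arrays, a change of -1.39 in bCATca (adjusted p = 0.112, or 0.0328 without the IKKa-AA arrays). Cyp2s1, an epithelial P450 that responds to dioxin, gave -0.66 (SE 0.18, adjusted p = 0.0549, or 0.0271 without the IKKa-AA arrays), and Cyp2a12 gave -0.69 (adjusted p = 0.0824). Not above background were Cyp2d9, Cyp2d10, Cyp2d12, Cyp2d34, Cyp2f2, Cyp2g1, Cyp2j5 and Cyp2j13, with changes from -0.45 for Cyp2j5 to -0.02 for Cyp2d12.

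Cyp2e1, which oxidises ethanol and other small molecules, was the sole P450 gene that rose. It read 4.55 and 5.53 in double mutants, 7.15 and 5.95 on bCATca arrays, 3.72 and 4.55 on IKKa-AA arrays, and 4.68 and 4.94 on WT arrays. Both bCATca arrays stood above all other arrays, and the rise over WT was 3.34-fold (change 1.74, SE 0.45, adjusted p = 0.0498). The adjusted p lay just under the threshold, and the call was kept in 2 of the 8 fits that left out 1 array and in 1 of the 8 other settings listed in the closing section.

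In the Cyp4 family, whose enzymes oxidise the ends of fatty acids and of lipid mediators such as leukotriene, Cyp4f13 and Cyp4v3 fell. Cyp4f13 read 7.24 and 7.15 in double mutants, 7.38 and 6.75 on bCATca arrays, 7.08 and 7.76 on IKKa-AA arrays, and 8.32 and 8.49 on WT arrays. All other arrays lay below WT, the fall in bCATca was 2.54-fold (change -1.34, SE 0.26, adjusted p = 0.0204), and this was the call that held most often, in 5 of the 8 fits without 1 array. Cyp4v3, an enzyme of medium-chain fatty acids, read 10.07 and 10.14 in double mutants, 10.25 and 9.10 on bCATca arrays, 9.71 and 11.22 on IKKa-AA arrays, and 11.58 and 11.64 on WT arrays. It fell 3.81-fold (change -1.93, SE 0.48, adjusted p = 0.0446), with -2.48 on its other probe set. Cyp4f14 read 10.95 and 11.01 in double mutants, 10.89 and 10.04 on bCATca arrays, 10.87 and 11.17 on IKKa-AA arrays, and 11.10 and 11 on WT arrays. Only bCATca replicate 2 stood clearly apart, and its change of -0.59 had an adjusted p of 0.167. Cyp4b1 gave -0.99 (adjusted p = 0.0817) and Cyp4f16 -0.46 (adjusted p = 0.588), and the groups overlapped for Cyp4f16 and for Cyp4f15 (-0.06). Cyp4a12a, Cyp4a14, Cyp4a31 and Cyp4f18 stayed at or below 3.84.

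Of the sterol and bile acid enzymes, Cyp27a1 fell. This mitochondrial enzyme oxidises the side chain of cholesterol. It read 8.25 and 9.01 in double mutants, 8.10 and 7.87 on bCATca arrays, 7.90 and 8.65 on IKKa-AA arrays, and 9.61 and 9.01 on WT arrays. The bCATca arrays lay below both WT arrays, and the fall was 2.51-fold (change -1.33, SE 0.33, adjusted p = 0.0437). Cyp39a1, which acts on oxysterols, read 4.78 and 5.45 in double mutants, 5.79 and 6.06 on bCATca arrays, 5.89 and 5.66 on IKKa-AA arrays, and 5.12 and 5.03 on WT arrays. Both single mutants stood above WT without overlap, with 0.85 in bCATca (SE 0.22, adjusted p = 0.0515, or 0.0374 without the IKKa-AA arrays), while the double mutants straddled it. Cyp51, which removes a methyl group from lanosterol in cholesterol synthesis, read 8.98 and 8.82 in double mutants, 8.96 and 9.29 on bCATca arrays, 9.52 and 8.64 on IKKa-AA arrays, and 7.93 and 8.62 on WT arrays. All other arrays were above WT, IKKa-AA replicate 2 only just, and 0.85 in bCATca had an adjusted p of 0.117, or 0.0435 without the IKKa-AA arrays. Cyp7a1, the rate-limiting enzyme of bile acid synthesis in liver, Cyp7b1, Cyp8b1 and the brain cholesterol hydroxylase Cyp46a1 were not above background, with changes of -0.41, 0.12, -0.19 and -0.11. The enzymes of steroid hormone synthesis Cyp11a1, Cyp11b2 and Cyp17a1 were also not above background (0.07, -0.07 and -0.18), and Cyp21a1 read 5.86 to 6.27 on every array with a change of -0.26. The vitamin D enzymes Cyp24a1 and Cyp27b1 and the retinoic acid hydroxylase Cyp26a1, likewise at background, gave -0.14, 0.00 and -0.10.

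Genes that serve P450 enzymes were read from lists chosen for this purpose. Over all genes, 3.55% fell and 5.74% rose in bCATca against WT. Of 9 electron donors and membrane partners of P450 enzymes, 6 were measured, 2 fell in bCATca, none rose, and the median change was -0.71. The gene Cyb5a, cytochrome b5, which passes electrons to microsomal P450 enzymes, read 11.26 and 11.09 in double mutants, 10.93 and 10.83 on bCATca arrays, 11.32 and 11.67 on IKKa-AA arrays, and 11.86 and 12.10 on WT arrays, and fell by 1.10 (SE 0.17, adjusted p = 0.00861). Pgrmc1, a heme-binding partner of P450 enzymes, fell by 1.10 as well (SE 0.21, adjusted p = 0.0176). Of 14 genes of heme synthesis and turnover, 13 were measured, Cpox fell (-0.70, adjusted p = 0.049), Blvrb rose (0.77, adjusted p = 0.024), and the median change was 0.09.

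Of 29 transcription factors known to act on P450 genes, 26 were measured. In bCATca against WT 5 fell (3.55% of all genes), 3 rose (5.74%), and the median change was -0.28. The 5 that fell were Nr1i2, the pregnane X receptor (-0.99, adjusted p = 0.0277), Ppara (-1.47, adjusted p = 0.0176), Nr1h3 (-1.08, adjusted p = 0.00929), Hnf4g (-1.03, adjusted p = 0.0311) and Nr5a2 (-0.72, adjusted p = 0.0306). Rarb (1.27), Foxa1 (1.19) and Foxa3 (1.26) rose. Rarb read 4.46 and 4.19 on bCATca arrays and 2.96 and 3.15 on WT arrays, under background, so its change has no firm size. Nr1i2 read 7.96 and 8.51 in double mutants, 7.45 and 7.13 on bCATca arrays, 7.79 and 7.93 on IKKa-AA arrays, and 8.41 and 8.16 on WT arrays, and only the bCATca arrays lay below all of the others. Nr1i3, the constitutive androstane receptor, gave -0.67 (adjusted p = 0.156), and Ahr, the aryl hydrocarbon receptor, gave -0.59 (adjusted p = 0.0803). In double mutants against bCATca 1 of the 26 rose (0.403% of all genes did), Nr5a2 (0.94, adjusted p = 0.0382). In IKKa-AA against WT none of the 3 lists had a call.

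Markers of some cell types differed between the groups along with the P450 genes, and others did not. The counts of genes called stand beside these shares of all genes. In bCATca against WT 3.55% fell and 5.74% rose. In double mutants 0.46% fell against WT and 0.807% fell against bCATca. Of 18 enterocyte genes 15 were measured and none was at or under background. Their log2 summed intensity was 16.07 and 16.25 in double mutants, 16.05 and 15.56 on bCATca arrays, 16.14 and 16.45 on IKKa-AA arrays, and 16.45 and 16.51 on WT arrays. In bCATca 4 of the 15 fell and the median change was -0.75. Over the 63 P450 genes the median change was -0.41, but 33 of them were not above background. Over the 30 whose mean over all 8 arrays was above it, the median change was -1.27. That mean includes the WT arrays, so a gene can be kept through high WT readings alone. For 3 of the 30, Cyp1a2, Cyp2b9 and Cyp2d13, the bCATca mean was at or under background. The value of -1.27 is therefore not a like measure to the enterocyte median. Of 11 crypt genes 9 were measured, with sums of 10.57 and 10.93 in double mutants, 11.52 and 11.41 on bCATca arrays, 10.63 and 10.59 on IKKa-AA arrays, and 10.25 and 10.15 on WT arrays, and 5 of the 9 rose in bCATca (median change 1.5). Of 12 genes of T cells and intraepithelial lymphocytes 10 were measured, with sums of 10.08 and 9.65 in double mutants, 12.39 and 12 on bCATca arrays, 10.97 and 12.89 on IKKa-AA arrays, and 13.06 and 12.68 on WT arrays. None of the 10 was called in bCATca, and 4 fell in double mutants against WT. The 5 measured of 7 genes of B and plasma cells summed to 6.89 and 6.90 in double mutants, 11.94 and 11.53 on bCATca arrays, 8.12 and 11.90 on IKKa-AA arrays, and 10.54 and 10.90 on WT arrays. IKKa-AA replicate 1 and the double mutants were thus low in lymphocyte and plasma cell genes and in P450 genes. The bCATca arrays were low in P450 genes, with B and plasma cell sums above WT. Their sums for T cells and intraepithelial lymphocytes, 12.39 and 12, lay below both WT arrays (13.06 and 12.68). The median change of that list in bCATca was -0.73. The part of these markers in the P450 results was not tested. Genes of pancreatic acinar cells stood out on double mutant replicate 1 alone, by a median of 2.17 over the WT mean for 8 measured genes, and 7 hepatocyte genes had a median change of -0.12 in bCATca with albumin, Alb, at 3.71 to 4.77 on all arrays. Of the 5 genes of B and plasma cells, Ms4a1 and Igha fell in double mutants against bCATca, and none was called in bCATca against WT. Ms4a1 was under background in double mutants, at 3.19 and 2.98. In bCATca against WT, 1 of 8 myeloid genes rose (Cd14), 1 of 11 stromal and endothelial genes rose (Vim) and 1 fell (Des). Of 11 genes of intestinal regions 1 rose (Retnlb) and 3 fell (Car1, Car4 and Slc26a3). Car1 was under background on every array, at or below 3.51, so its change has no firm size.

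**Figure D5:**
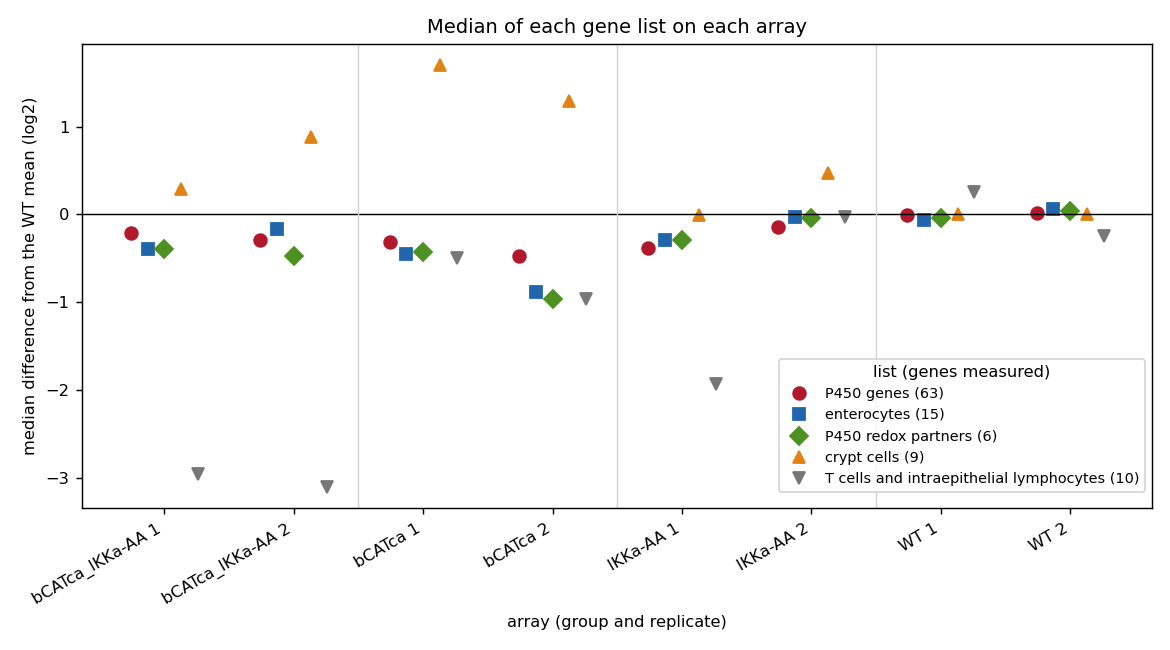
Median difference from the WT mean (log2) on each array for the 63 P450 genes and for 4 other lists. P450 genes lie at -0.21 and -0.29 on the bCATca_IKKa-AA arrays, at -0.32 and -0.48 on the bCATca arrays, and at -0.38 and -0.14 on the IKKa-AA arrays; crypt genes are highest in bCATca, and lymphocyte genes are lowest in bCATca_IKKa-AA.

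The comparison of IKKa-AA with WT asks for the effect of the AA allele alone, and no P450 gene passed the test (0.00807% of all genes did). At an unadjusted p under 0.05, 15 P450 genes were lower and 2 higher in IKKa-AA, where 6.54% and 5.16% of all genes were. The median change over the 63 genes was -0.29. In IKKa-AA 12 genes were lower by more than 1 (1.0% of all genes) and none higher by as much (0.597%). The arrays did not overlap for 35 genes lower in IKKa-AA (24.7% of all genes) and 5 higher (21.2%). Smallest p had Cyp2c38 (-0.70, SE 0.15, adjusted p = 0.269), Cyp4f13 (-0.98, SE 0.26, adjusted p = 0.306) and Cyp4b1 (-1.09, SE 0.32, adjusted p = 0.328). Cyp3a11 illustrates the spread, with a change of -1.80 whose 95% interval runs from -3.79 to 0.20. The comparison rests on which IKKa-AA array is taken. Without replicate 1 no P450 gene was called. Without replicate 2 10 fell (1.59% of all genes): Cyp1a1, Cyp2b10, Cyp2c23, Cyp2c29, Cyp2j6, Cyp2j9, Cyp3a11, Cyp3a25, Cyp4f13 and Cyp4v3, with changes from -1.30 to -6.39, the lone array then being assumed to vary like the other groups.

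The comparison of double mutants with bCATca asks whether the AA allele alters P450 levels once β-catenin is active. No P450 gene passed the test (1.21% of all genes did, 0.403% higher and 0.807% lower), with or without the IKKa-AA arrays or any 1 array. At an unadjusted p under 0.05, 3 were higher and 3 lower in double mutants, where 6.58% and 8.2% of all genes were. The median change was 0.14. Cyp2b10, Cyp3a11 and Cyp3a25 were higher by more than 1 in double mutants (0.976% of all genes) and Cyp2e1 lower by as much (1.67%). Both double mutant arrays lay above both bCATca arrays for 24 genes (22.6% of all genes did) and below them for 8 (24.2%). Cyp39a1 (-0.81, SE 0.22, adjusted p = 0.14), Cyp2e1 (-1.51, SE 0.45, adjusted p = 0.169) and Cyp2s1 (0.49, SE 0.18, adjusted p = 0.254) had the smallest p. Cyp2b10 gave 1.84 with a 95% interval from -0.23 to 3.91, and Cyp3a25 gave 1.27 from -0.41 to 2.95, so higher levels in double mutants by several fold and no difference both lie within the intervals. Cyp2c29 gave -0.15 with an interval from -3.31 to 3.01.

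Against WT, no P450 gene passed the test in double mutants (1.44% of all genes did, 0.984% higher and 0.46% lower), and at an unadjusted p under 0.05 14 were lower and none higher, where 7.56% and 9.38% of all genes were. In double mutants 14 were lower by more than 1 (2.34% of all genes) and none higher by as much (1.73%), and the arrays did not overlap for 38 lower (23.7%) and 5 higher (28.2%). Cyp4f13 (-1.21, SE 0.26, adjusted p = 0.0691), Cyp2j9 (-1.79, SE 0.41, adjusted p = 0.0798) and Cyp2c29 (-5.78, SE 1.38, adjusted p = 0.0875) had the smallest p. Without the IKKa-AA arrays 10 genes fell (2.64% of all genes), Cyp1a1, Cyp2c23, Cyp2c29, Cyp2c55, Cyp2c65, Cyp2j6, Cyp2j9, Cyp3a11, Cyp4f13 and Cyp4v3. This comparison and that of bCATca share the WT arrays. In double mutants against IKKa-AA no P450 gene passed the test (0.0565% of all genes did, 0.0484% higher and 0.00807% lower), and at an unadjusted p under 0.05 2 were lower (2.45% of all genes) and none higher (4.48%). In double mutants 4 were lower by more than 1 (0.831%) and none higher by as much (0.75%), and the arrays did not overlap for 8 lower (13.8%) and 8 higher (19.9%). Cyp7b1 (-0.46, adjusted p = 0.535), Cyp39a1 (-0.66, adjusted p = 0.582) and Cyp2e1 (0.90, adjusted p = 0.777) had the smallest p. Without IKKa-AA replicate 1, Cyp2c29 (-4.56, adjusted p = 0.0134) and Cyp2c23 (-1.37, adjusted p = 0.021) fell in double mutants, where 0.912% of all genes did.

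The interaction is the change due to active β-catenin in AA mice less the same change where IKKα is normal, and a positive value means a smaller decrease or a larger increase in AA mice. No P450 gene passed this test (0.0888% of all genes did, 0.0403% with a positive and 0.0484% with a negative value). At an unadjusted p under 0.05, 17 were positive and 3 negative, where 7.9% and 7.84% of all genes were, and the median over the 63 genes was 0.43. Smallest p had Cyp39a1 (-1.51, SE 0.32, adjusted p = 0.103), Cyp2c38 (0.84, SE 0.21, adjusted p = 0.139) and Cyp27a1 (1.68, SE 0.47, adjusted p = 0.177). Cyp39a1 was higher in each single mutant than in WT and near WT in double mutants, and its value did not pass. Without IKKa-AA replicate 2, 8 genes had a positive interaction that passed the test (1.01% of all genes): Cyp2b10 (5.20, adjusted p = 0.0306), Cyp2c23, Cyp2c29, Cyp2d22, Cyp2j6, Cyp2j9, Cyp3a11 (4.68, adjusted p = 0.0105) and Cyp3a25. Without IKKa-AA replicate 1 none did.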

How the data were processed

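Affymetrix arrays, 8 in all, measured RNA of mouse intestinal epithelial cells, and the labels gave 4 groups of 2. Each deposited value is an intensity of 1 probe set on 1 array. The submitters' processing notes name RMA and the affy package, whose versions are not given in the sources used here. As usually run, RMA subtracts background, gives all arrays a common distribution and summarises probes, which can narrow differences of dim probe sets. That the authors left the intensity on the linear scale is read from the values, and log2 of each deposited value was taken here. Array medians lay between 50.9 and 53.8. Arrays carry no read depth, and their number limits the precision.

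Symbols came from the platform annotation, updated through RefSeq. Of 22690 probe sets, 20380 had 1 symbol, 691 several, 1555 none and 64 were controls, and only those with 1 symbol gave gene names. The brightest probe set by mean level stood for each of 12393 genes. limma 3.58.1 under R 4.3.3 fitted group means to all 8 arrays at once (lmFit, eBayes), with 4 residual and 4.28 prior degrees of freedom, and p-values were adjusted over all genes. Scripts were tested on simulated data. Python 3.11.15, pandas 2.3.3, numpy 2.4.6 and matplotlib 3.10.9 made tables and figures.

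The members, the lists and the tests were chosen with earlier results of these data known. Named by rule were up to 12 called genes with the largest change in each comparison, the 3 with the smallest p where fewer than 3 passed, the brightest member of each family, and 35 members with known roles, of which 29 were measured. Other genes named for their values, such as Cyp2c38 and those that just missed the threshold, were chosen after their values were seen. No set test was run. Lists covered redox partners, heme genes, transcription factors, epithelium, enterocytes, crypt cells, T cells, B and plasma cells, myeloid cells, stroma, pancreatic acinar cells, hepatocytes and intestinal regions. Among 10 epithelial genes 1 rose in bCATca against WT (5.74% of all genes did). A probe set suffix that marks possible matches to related transcripts was present for 8 P450 genes, 5 with s and 3 with a. Those with s were Cyp2b10, Cyp2c23, Cyp2c65 and Cyp4v3, all called lower in bCATca against WT, and Cyp7b1. Those with a were Cyp1a1, Cyp2d9 and Cyp2f2. Replicate numbers are not known to pair the samples. Deviations of replicate 1 from its group mean correlated between groups at -0.448 to 0.15. With 2 arrays per group these values cannot show whether the numbers pair the samples. The alternatives are listed with their effect in the closing section.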

Additional observations from a re-analysis of the deposited data

How the results depend on the processing

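Counts of P450 genes passing the test are given for each alternative. For bCATca against WT, 13 passed with the settings of the report. The count was 11 after quantile normalization, 12 after cyclic loess, 10 among genes above the median level, 9 with the mean of all probe sets of a gene and 11 with all probe sets tested. It was 3 with an offset of 16 added before log2, 22 with a fit of only the groups compared and 7 with a trended, robust eBayes, and leaving out 1 array gave 0 to 23. Without both IKKa-AA arrays, an alternative added after seeing the data, it was 23, and all 13 were among the 22 and the 23. With the replicate number as a replicate block 3 passed, 2 of them among the 13. The numbers are not known to pair the samples, so this count says nothing of the size of an effect, and in the other comparisons the block gave 0. For double mutants against WT, where none passed, 15 did in a fit of only those groups and 10 without both IKKa-AA arrays, and leaving out 1 array gave 0 to 10. The range over fits without 1 array was 0 to 10 for IKKa-AA against WT, 0 to 2 for double mutants against IKKa-AA, 0 to 8 for the interaction and 0 to 0 for double mutants against bCATca. The fits without 1 array lose 1 of 4 residual degrees of freedom and the gap between the partners of that array. Over the named genes, 712 alternative values kept side and direction, 103 no longer passed, 57 passed where they had not, and 6 turned sign, none of them called. Leaving out 1 bCATca array gave -0.39 to 0.02 for Cyp17a1, -0.22 to 0.03 for Cyp26a1 and -0.32 to 0.10 for Cyp46a1. Cyp27b1 gave -0.20 to 0.21 without 1 array, -0.06 without bCATca replicate 2, and 0.00 with the offset of 16. With 2 arrays per group the intervals are wide, and the scale compresses changes of genes near background.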

Other observations

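The WT arrays differed in sex, and some P450 genes differ by sex in mouse liver. Cyp2d9 and Cyp4a12a, male-biased there, read 3.49 and 2.76 on WT replicate 1, which lacked Y-linked transcripts, and 3.17 and 2.70 on WT replicate 2. Cyp2b9 and Cyp3a44, female-biased there, read 4.51 and 2.74 on WT replicate 1 and 4.30 and 2.69 on WT replicate 2. On both WT arrays Cyp2d9, Cyp4a12a and Cyp3a44 were under the background of 4.03, and Cyp2b9 was only just above it. With a single WT array of each sex, these readings cannot show whether the genes differ by sex here. Over the 63 genes 3 lay more than 1 apart between the WT arrays, all higher on replicate 2.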
